A study of Mus musculus with 2 samples.

Results

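The 10 genes described here, chosen with earlier results of these data known, make up the EGF receptor family and its ligands. They were found by symbol among the 32285 genes listed for each library. They are the receptors Egfr, Erbb2, Erbb3 and Erbb4, the ligands Egf, Tgfa, Areg, Hbegf and Btc, and the inhibitor Errfi1. All 10 symbols matched 1 gene each, so 10 of 32285 genes are described. Single cells from the livers of C57BL6 mice kept on a WD for 16 weeks were compared between 1 WT library and 1 N-LKO library. WT is labelled CTRL for genotype and Liver for tissue, and which floxed or Cre alleles its mouse carried is not given in the sources used here. The sample titles call the diet HFD. N-LKO is labelled NgBR KO and Liver plus tumor. Its Nus1 gene, which encodes NgBR, was deleted by albumin-Cre from loxP-flanked alleles. The study describes the deletion as specific to hepatocytes, and Nus1 levels by class are given below. The cell suspension was a mixture of hepatocytes and nonparenchymal cells in WT and of hepatocytes, nonparenchymal cells and tumor cells in N-LKO, so cell numbers were set in part by the mixing, and genotype, tumor and library cannot be told apart. With 1 library for each genotype no test across animals was possible. All intervals below are exact 95% intervals that cover counting error only, and no p-value is given.

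The EGF receptor family are receptor tyrosine kinases that pair with one another when a ligand binds the outer part of at least one partner, and signal through the RAS-MAPK, PI3K and STAT routes. Egfr binds EGF, TGF-alpha, amphiregulin, HB-EGF and betacellulin, ErbB3 and ErbB4 bind neuregulins, and ErbB2 has no known ligand and serves as a partner. The ligands are made as membrane proteins and released by sheddases. Hepatocytes are known for abundant EGFR, and the pathway is known for its part in liver regeneration. Errfi1 (also called Mig6) encodes an inhibitor that binds the kinase domain of the active receptor.

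Egfr (ENSMUSG00000020122) lies on chromosome 11 at 16752203 to 16918158, plus strand, and spans 166 kb. Erbb4 (ENSMUSG00000062209) lies on chromosome 1 at 68032186 to 69108059, minus strand, and spans 1076 kb. Tgfa (ENSMUSG00000029999) lies on chromosome 6 at 86195223 to 86275719, plus strand, and spans 80.5 kb, all in GRCm38. Over summed hepatocyte-like cells Egfr was level between the libraries, Erbb4 was lower in N-LKO and Tgfa was higher in N-LKO. Within the same cluster Egfr was higher in N-LKO, as given below. The 250 bases before the annotated start of these genes are shown because the results turn on these genes. They are RefSeq sequences of build GRCm38.p6, read 5′ to 3′ along the gene, with each GGGCGG or its reverse complement CCGCCC (the GC box) in capitals. The windows are chr11:16751953-16752202 on the plus strand for Egfr, chr1:69108060-69108309 on the minus strand for Erbb4, and chr6:86194972-86195221 on the plus strand for Tgfa.
Egfr: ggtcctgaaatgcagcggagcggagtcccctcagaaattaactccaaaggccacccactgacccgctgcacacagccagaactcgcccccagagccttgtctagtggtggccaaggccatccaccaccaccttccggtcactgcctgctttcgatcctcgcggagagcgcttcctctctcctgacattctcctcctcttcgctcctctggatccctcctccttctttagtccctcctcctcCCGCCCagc
Erbb4: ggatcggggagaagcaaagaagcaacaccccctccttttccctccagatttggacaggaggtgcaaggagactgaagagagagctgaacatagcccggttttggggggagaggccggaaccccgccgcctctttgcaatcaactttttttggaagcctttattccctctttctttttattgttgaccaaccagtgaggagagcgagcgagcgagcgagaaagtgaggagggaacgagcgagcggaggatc
Tgfa: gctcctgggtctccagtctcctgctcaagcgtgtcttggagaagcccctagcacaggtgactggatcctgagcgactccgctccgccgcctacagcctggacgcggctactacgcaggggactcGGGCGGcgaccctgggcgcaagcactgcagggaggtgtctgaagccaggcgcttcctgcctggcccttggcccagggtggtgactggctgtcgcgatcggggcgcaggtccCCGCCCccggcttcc
The window of Tgfa held 2 GC boxes, that of Egfr 1 and that of Erbb4 0, whereas 32.7% of the 32851 windows of this length in the RefSeq table held at least 1 on either strand. GC content was 69.2% for Tgfa, 60.8% for Egfr and 54.0% for Erbb4, against a median of 52.4% over all windows. None of the 3 windows held TATAAA or its reverse complement TTTATA, which 12.4% of all windows held. These matches describe letters and were set against no measurement of binding.

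After filtering, 18435 WT cells and 19850 N-LKO cells remained, with a median of 1400 and 1454 unique molecular identifiers (UMIs, 1 for each captured mRNA molecule). Levels are given as CPM, the UMIs of a gene in all cells of a class and library scaled to the same total. Classes were named from marker lists, as hepatocyte-like and so on, and the 10 members and the pathway genes were kept out of the genes used for clustering. Nus1 was 73.0 CPM in WT against 39.1 CPM in N-LKO hepatocyte-like cells, a log2 ratio of -0.90 (interval -1.13 to -0.67). Free RNA, estimated from barcodes under 500 UMIs, was expected to give 48.5 CPM of the WT level and 13.9 CPM of the N-LKO level. The part of free RNA in this ratio was not tested. With the unnamed cluster described below, the log2 ratio of Nus1 was -1.08 (interval -1.27 to -0.90). In macrophage-like cells the Nus1 ratio was -0.02 (interval -0.22 to 0.20), in endothelial-like cells 0.04 (interval -0.21 to 0.30) and in T-like cells -0.41 (interval -0.76 to -0.05). In cholangiocyte-like cells it was -0.31 (interval -1.16 to 0.66), on 16 UMIs in WT and 38 UMIs in N-LKO. The libraries shared 122 barcodes among their kept cells.

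Hepatocyte-like cells were 9960 cells (54.0%) in WT and 2074 cells (10.4%) in N-LKO. They came from different clusters in each library, cluster 0 (led by Mup7 and Mup12, 8234 WT and 62 N-LKO cells) in WT and cluster 5 (led by A2ml1 and Serpina1e, 110 WT and 1986 N-LKO cells) in N-LKO. The summed level of the 10 hepatocyte markers was 46084 CPM in WT against 47484 CPM in N-LKO. A further cluster, 6, held 1 WT cell and 2056 N-LKO cells (10.4% of N-LKO) and was led by Grip1 and Gramd1c, with Neat1, a long noncoding RNA retained in the nucleus, among its 10 leading genes. Its best marker list was that of hepatocytes, at a summed 13735 CPM, below the 23134 CPM of N-LKO barcodes under 500 UMIs, and only 2 of 10 markers reached 2 times the median cluster, below the limit of 3 set for a name. It was therefore left unnamed, and since the limit was set after the data were seen, hepatocyte results are given without it and with it.

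**Figure D1:**
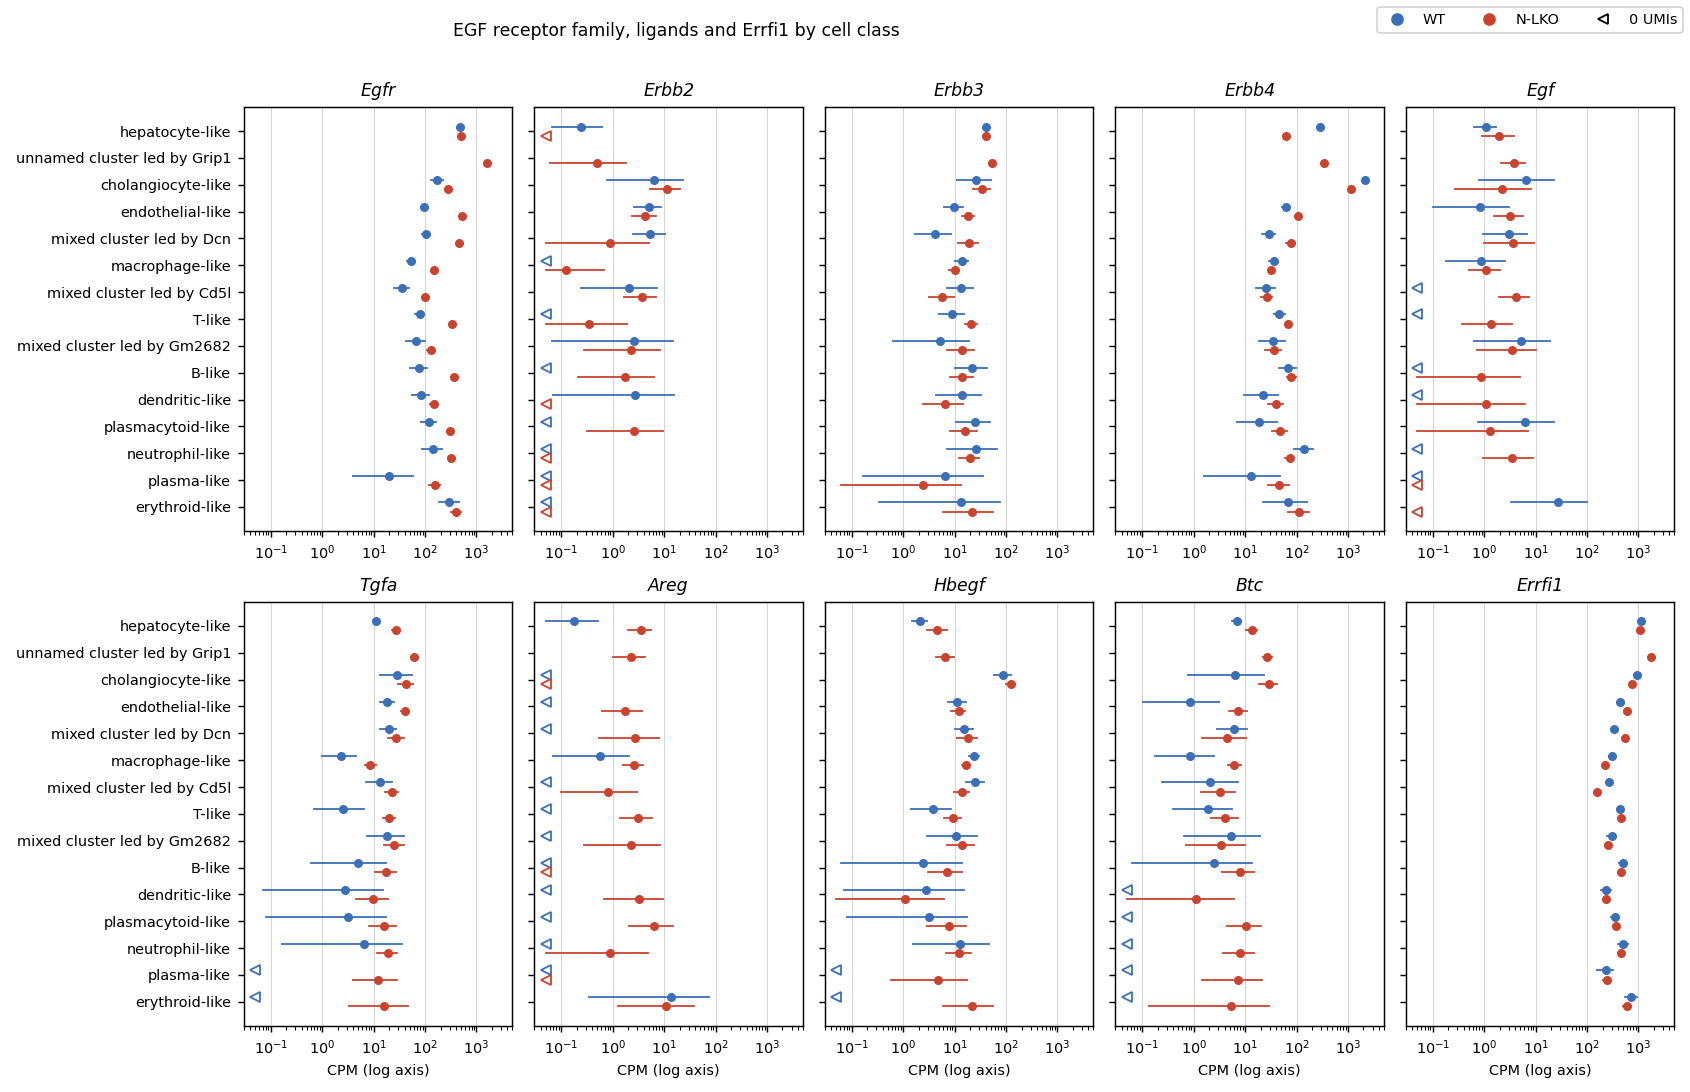
Level of each of the 10 genes in CPM (log axis) in 11 named classes, 3 mixed clusters and the unnamed cluster, WT in blue and N-LKO in red. Points are summed UMIs of 1 library, bars are exact 95% Poisson intervals cut at the left edge, and open triangles mark 0 UMIs. Egfr was level in hepatocyte-like cells at 488 and 496 CPM. It was higher in N-LKO in all other rows that hold a WT value, within counting error in erythroid-like cells. The unnamed cluster has no WT value.

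Egfr, the main receptor for EGF and TGF-alpha, was level between the libraries when all hepatocyte-like cells were summed. It was 488 CPM (interval 477 to 499) in WT from 8203 UMIs and 496 CPM (interval 475 to 516) in N-LKO from 2266 UMIs. The log2 ratio of N-LKO over WT was 0.02 (interval -0.05 to 0.09). With each cell thinned to 1000 UMIs, 34.4% of WT cells (interval 33.5 to 35.4) and 34.4% of N-LKO cells (interval 32.4 to 36.5) held an Egfr UMI, and 48.3% and 54.7% without thinning. In T-like cells, which should lack the receptor, the thinned shares were 6.31% and 21.1%, at median depths of 1189 and 1348.5 UMIs against 1519 and 1942.5 UMIs in hepatocyte-like cells.

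Egfr in the unnamed cluster was far higher, at 1632 CPM (interval 1592 to 1672) in N-LKO. Counting that cluster as hepatocyte-like raised N-LKO to 1024 CPM and the log2 ratio to 1.07 (interval 1.03 to 1.11). A WT cluster of 328 cells that was also rich in Neat1, cluster 17, held Egfr at 1605 CPM, and the log2 ratio between these 2 clusters was 0.02 (interval -0.07 to 0.12). Between the largest hepatocyte-like cluster of each library it was 0.02 (interval -0.05 to 0.09). Within the same cluster, however, Egfr was higher in N-LKO, at 482 CPM (interval 471 to 493) in WT and 701 CPM (interval 556 to 872, 62 cells) in N-LKO for cluster 0, and at 201 CPM (interval 146 to 271, 110 cells) in WT and 488 CPM (interval 468 to 509) in N-LKO for cluster 5. The level Egfr total therefore held between different clusters and not within a cluster. Among WT clusters Egfr ran from 105 CPM in cluster 9, the poorest in Malat1, to 1605 CPM in cluster 17. Subtracting the free RNA of each library, at an estimated share of 83.9% in WT and 37.3% in N-LKO, gave a log2 ratio of -1.31 over the UMIs that remained and of 0.02 over the totals before subtraction. The choice of total lowers or raises every gene alike. The median over all measured genes was -0.23 with the first (10093 genes) and 1.29 with the second (8286 genes). These medians cover different sets of genes, so their difference is not the shift of a single gene.

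**Figure D2:**
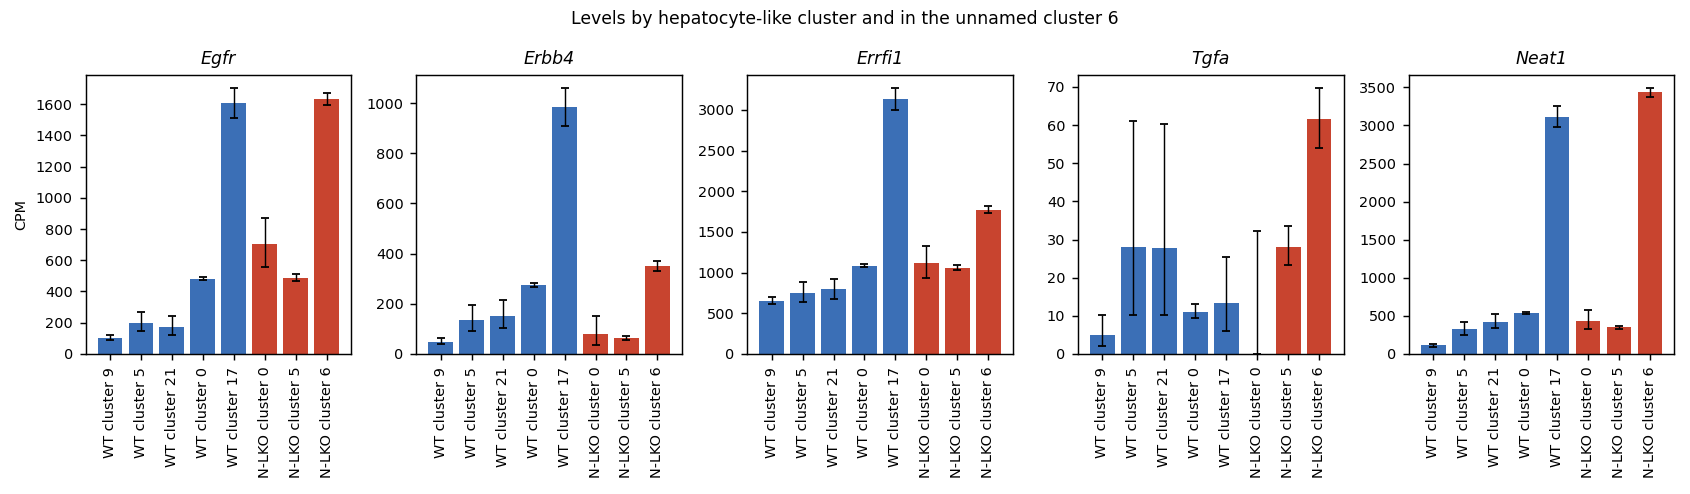
Egfr, Erbb4, Errfi1, Tgfa and Neat1 in CPM in each hepatocyte-like cluster with at least 50 cells and in the unnamed cluster 6, WT in blue and N-LKO in red. Bars are CPM with exact 95% Poisson intervals. Egfr and Neat1 were high together in WT cluster 17 and N-LKO cluster 6, while Erbb4 was 983 CPM in the first and 350 CPM in the second.

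Erbb4, a receptor for neuregulins, was the member furthest below its WT level in hepatocyte-like cells. It was 282 CPM (interval 274 to 290) in WT from 4733 UMIs and 62.5 CPM (interval 55.5 to 70.2) in N-LKO from 286 UMIs. WT was 4.49-fold higher, a log2 ratio of -2.17 (interval -2.35 to -1.998). The thinned share of cells with an Erbb4 UMI was 21.8% in WT and 5.54% in N-LKO, beside 4.61% and 5.87% of T-like cells. The free RNA expected in N-LKO hepatocyte-like cells was 22.5 CPM of Erbb4. Within clusters 0 and 5 Erbb4 was 275 and 136 CPM in WT but 78.9 and 61.8 CPM in N-LKO. It was also lower in N-LKO under both ways of treating the unnamed cluster and in both pairs of clusters. With the unnamed cluster the log2 ratio was -0.52 (interval -0.60 to -0.44), between the Neat1-richest clusters -1.49 (interval -1.63 to -1.35), and between the largest clusters -2.15 (interval -2.34 to -1.98).

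Erbb3, which binds neuregulins and signals mainly through PI3K, was 41.6 CPM in WT from 699 UMIs and 41.3 CPM in N-LKO from 189 UMIs in hepatocyte-like cells. The log2 ratio was -0.01 (interval -0.25 to 0.23), and 0.19 (interval 0.01 to 0.37) with the unnamed cluster. Erbb2, the partner without a ligand, had 4 UMIs in WT (0.238 CPM) and 0 UMIs in N-LKO hepatocyte-like cells, where 3 UMIs would be 0.656 CPM. With the unnamed cluster Erbb2 had 4 UMIs in WT and 2 UMIs in N-LKO. No difference in Erbb2 was detectable at this depth.

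Among the ligands, Tgfa, Btc, Hbegf and Areg stood above their WT levels in N-LKO hepatocytes, on few UMIs. Tgfa, a ligand made by hepatocytes themselves, was 11.1 CPM (interval 9.59 to 12.8) in WT from 187 UMIs and 27.3 CPM (interval 22.8 to 32.6) in N-LKO from 125 UMIs. Its log2 ratio was 1.30 (interval 0.96 to 1.63), and 1.96 (interval 1.70 to 2.22) with the unnamed cluster, where Tgfa was 61.5 CPM. The intervals of the libraries did not overlap. With free RNA subtracted the ratio was 0.61 over the remaining UMIs and 1.93 over the totals before subtraction. Btc, which encodes betacellulin, was 6.84 CPM in WT against 13.6 CPM in N-LKO, with a log2 ratio of 0.99 (interval 0.52 to 1.44). With free RNA subtracted it was 0.04 over the remaining UMIs and 1.37 over the totals before subtraction. Btc had a log2 ratio of 1.54 (interval 1.19 to 1.89) with the unnamed cluster. Between the Neat1-richest clusters Btc was 23.8 and 27.1 CPM, a log2 ratio of 0.15 (interval -0.58 to 1.04).

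Hbegf, which encodes heparin-binding EGF, rested on 36 UMIs in WT (2.14 CPM) and 21 UMIs in N-LKO (4.59 CPM), with a log2 ratio of 1.11 (interval 0.25 to 1.92). Areg, which encodes amphiregulin, rested on 3 UMIs in WT (0.178 CPM) and 16 UMIs in N-LKO (3.499 CPM), with a log2 ratio of 4.12 (interval 2.49 to 6.71). These counts are small, and both intervals, which cover counting error only, excluded 0. The free RNA expected was 62.4% of the Hbegf level in WT and 34.6% in N-LKO. For Areg it was 57.6% and 6.99%, and the part of free RNA in these ratios was not tested. Egf had 18 UMIs in WT (1.07 CPM) and 9 UMIs in N-LKO (1.97 CPM), with a log2 ratio of 0.92 (interval -0.46 to 2.11), within counting error. With the unnamed cluster Egf rested on 18 and 24 UMIs, and its log2 ratio of 1.38 (interval 0.45 to 2.36) was beyond counting error. Counted the same way, Hbegf was at 1.36 (interval 0.70 to 2.03) and Areg at 3.84 (interval 2.32 to 6.41).

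Errfi1, the receptor inhibitor, was 1123 CPM (interval 1107 to 1139) in WT from 18875 UMIs and 1060 CPM (interval 1031 to 1091) in N-LKO from 4849 UMIs in hepatocyte-like cells. The log2 ratio of -0.08 (interval -0.13 to -0.04) was beyond counting error but small. It turned to 0.31 (interval 0.28 to 0.34) with the unnamed cluster, where Errfi1 was 1772 CPM, so its direction rested on how that cluster was treated. Between the Neat1-richest clusters Errfi1 was 3134 CPM in WT against 1772 CPM in N-LKO, with a log2 ratio of -0.82 (interval -0.89 to -0.75).

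A gene was counted as measured if it reached 5 CPM in at least 1 library and 3 UMIs in all. A measured gene was past 2-fold if its CPM ratio was at least 2-fold in either direction. In hepatocyte-like cells 6 of the 10 members reached that level (Egfr, Erbb3, Erbb4, Tgfa, Btc and Errfi1), of which 1 was past 2-fold higher in N-LKO (Tgfa) and 1 past 2-fold lower (Erbb4), against 5.51% and 3.33% of all 9963 genes. The median log2 ratio was 0.01 over these 6 members and 0.04 over all genes. With the unnamed cluster 7 members reached the level, 4 past 2-fold higher and 0 past 2-fold lower, against 21.9% and 2.4% of 10629 genes. The median of all genes then moved to 0.39 and that of the members to 1.07. Among the longest 10% of genes, which includes Egfr and Erbb4, the median log2 ratio was -0.12 without and 1.02 with the unnamed cluster. The Egfr ratio of 1.07 lay near the second value and the Erbb4 ratio of -0.52 well below it.

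Malat1, a nuclear RNA, differed between these clusters, so hepatocyte-like cells and the unnamed cluster were divided together into 4 bins of equal size by the Malat1 share of a cell's UMIs. In WT, Egfr was 271, 413, 515 and 761 CPM from the lowest to the highest bin, and in N-LKO 413, 511, 904 and 1724 CPM. Egfr was higher at higher Malat1 in both libraries, and N-LKO was above WT in every bin, with log2 ratios of 0.61, 0.31, 0.81 and 1.18. Erbb4 was 114, 210, 302 and 509 CPM in WT and 43.2, 63.0, 201 and 355 CPM in N-LKO. N-LKO was below WT in every bin for Erbb4, with log2 ratios between -1.73 and -0.52 and no interval reaching 0. Tgfa was 7.98, 11.1, 12.7 and 12.4 CPM in WT and 30.6, 26.9, 44.1 and 59.5 CPM in N-LKO. Tgfa was higher in N-LKO in every bin, with log2 ratios from 1.28 to 2.25. Errfi1 was higher in N-LKO in every bin, with log2 ratios of 0.13, 0.03, 0.25 and 0.31 and 3 of 4 intervals above 0. Over the same cells undivided its log2 ratio was 0.31, and without the unnamed cluster it was -0.08.

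**Figure D3:**
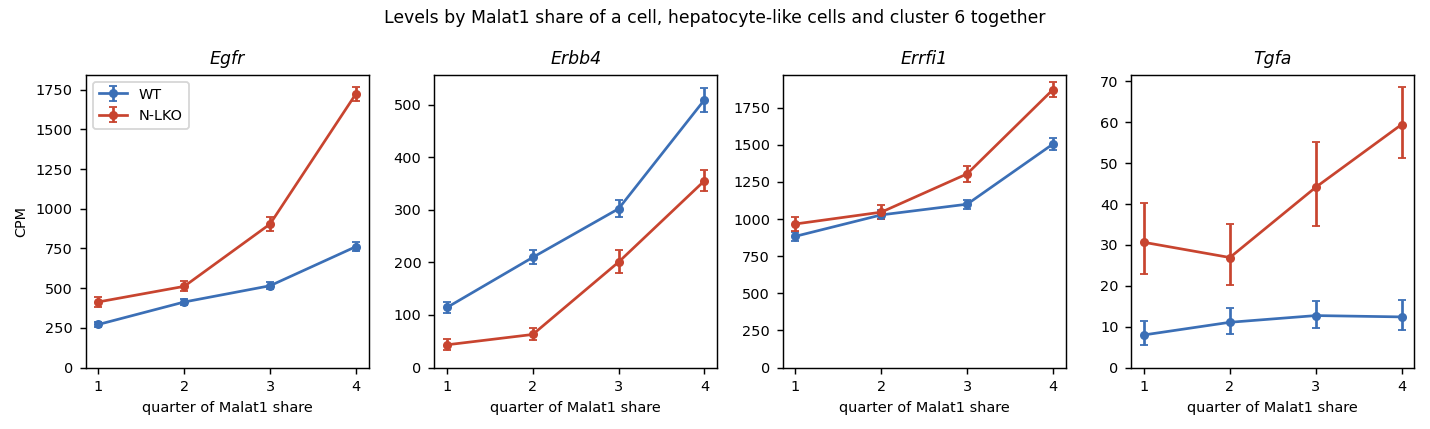
Egfr, Erbb4, Errfi1 and Tgfa in CPM in 4 bins of the Malat1 share of a cell's UMIs, from lowest to highest, over hepatocyte-like cells and the unnamed cluster together, WT in blue and N-LKO in red with exact 95% Poisson intervals. Egfr ran from 271 to 761 CPM in WT and from 413 to 1724 CPM in N-LKO, and N-LKO lay below WT in every bin for Erbb4.

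The pathway around the receptors was described with a list of 65 genes, of which 53 reached 5 CPM in hepatocyte-like cells. Of these, 6 were past 2-fold higher in N-LKO and 0 past 2-fold lower, beside the 5.51% and 3.33% of all genes given above, and their median log2 ratio was 0.09. The 8 measured immediate targets, genes switched on within minutes to hours of receptor signaling, were all higher in N-LKO with intervals above 0, as were 26.1% of all genes, with 4 of them past 2-fold and a median of 1.02. Ier3, an early response gene linked to cell survival, was 2.08 CPM in WT against 13.3 CPM in N-LKO, with a log2 ratio of 2.67 (interval 2.06 to 3.32). Ccnd1, which encodes cyclin D1 of the G1 phase, was 25.3 and 66.9 CPM, with a log2 ratio of 1.40 (interval 1.19 to 1.62). Fos, a subunit of the AP-1 transcription factor, was 42.2 and 90.7 CPM, with a log2 ratio of 1.10 (interval 0.93 to 1.28). Immediate early genes also respond to cell isolation and to other receptors, and their part in these values was not tested. With the unnamed cluster 1 of the 8 was past 2-fold, beside 21.9% of all genes, their median was 0.58 beside 0.39, and Jun, a partner of Fos, was at -0.09 (interval -0.21 to 0.02).

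The other 2 genes named by the rule were a ligand and a phosphatase. Nrg1, which encodes neuregulin 1, a ligand of ErbB3 and ErbB4, was 21.4 CPM in WT against 70.6 CPM in N-LKO, with a log2 ratio of 1.72 (interval 1.501 to 1.94). Dusp5, an ERK phosphatase induced by ERK signaling, was 3.03 and 9.40 CPM, with a log2 ratio of 1.63 (interval 1.01 to 2.25). It rested on 51 UMIs in WT and 43 UMIs in N-LKO. Dusp6 of the same list was 49.5 and 52.5 CPM, with a log2 ratio of 0.09 (interval -0.13 to 0.29). Spry4 was at -0.35 (interval -1.05 to 0.24). In hepatocyte-like cells Nrg1 was thus higher in the library in which the neuregulin receptor Erbb4 was lower, and a link was not tested. The list of other ligands, which holds Nrg1, also stood higher in N-LKO in other classes. Its median log2 ratio was 2.73 in T-like and 2.84 in endothelial-like cells. It was 1.72 in macrophage-like and 1.81 in cholangiocyte-like cells, over 2 or 3 measured genes in each class. None of the 17 measured adaptor and RAS-MAPK genes and none of the 7 PI3K and STAT genes was past 2-fold, with medians of -0.04 and -0.05. Of the 16 measured inhibitors and trafficking genes, 1 was past 2-fold higher (Dusp5) and the median was 0.04. With the unnamed cluster 9 of 16 were, beside 21.9% of all genes, and their median was 1.10 beside 0.39.

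**Figure D4:**
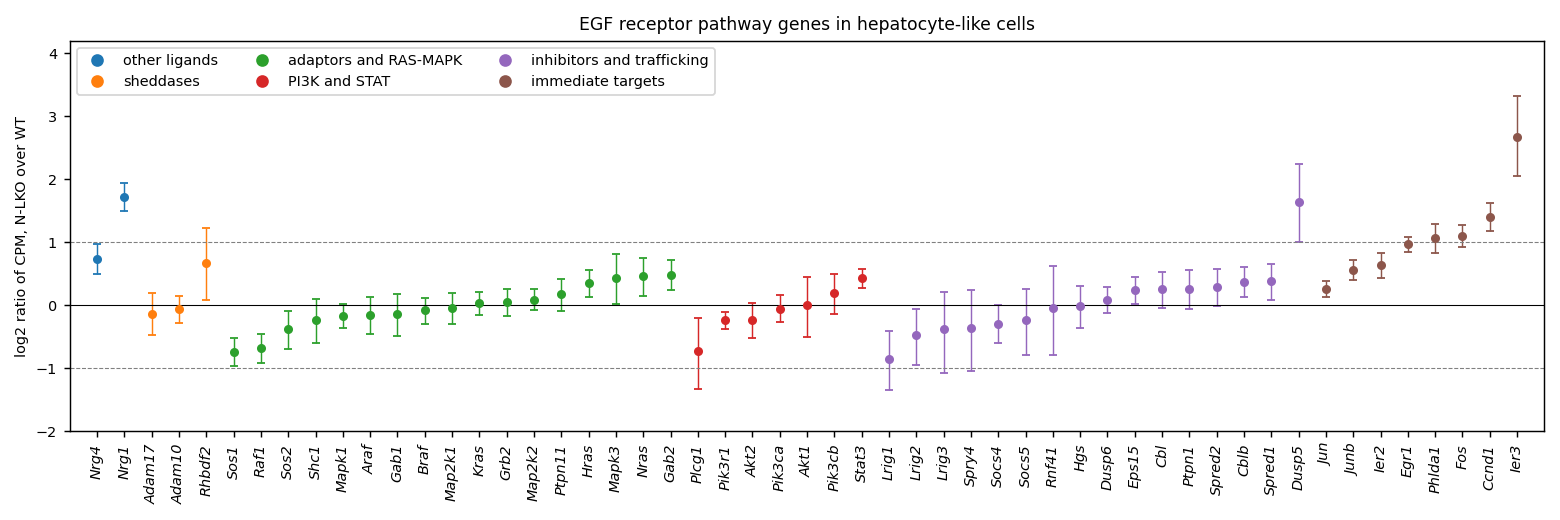
Log2 ratio of CPM, N-LKO over WT, in hepatocyte-like cells for the 53 measured pathway genes, colored by role, with exact 95% intervals; dashed lines mark 2-fold. The 8 immediate targets all lie above 0, with a median of 1.02, while adaptors and PI3K and STAT genes lie around 0.

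Cholangiocyte-like cells, the lining of the bile ducts (199 WT and 491 N-LKO cells), held the highest Erbb4 and Hbegf levels of all classes in both libraries. Erbb4 was 2140 CPM (interval 1980 to 2309) in WT from 663 UMIs and 1122 CPM (interval 1054 to 1194) in N-LKO from 1005 UMIs. WT was 1.91-fold higher, with a log2 ratio of -0.93 (interval -1.07 to -0.79), and the thinned shares of cells with a UMI were 81.4% and 60.3%. The 8 cholangiocyte markers summed to 3927 CPM in WT against 3561 CPM in N-LKO. Of other lists, stellate cell markers were 200.1 and 497 CPM, neutrophil markers 29.0 and 279 CPM, macrophage markers 148 and 252 CPM and hepatocyte markers 15935 and 10080 CPM, and their part in the values of this class was not tested. Erbb4 was thus lower in N-LKO in the 2 classes in which its WT level was highest. Hbegf was 87.1 CPM in WT against 124 CPM in N-LKO, with a log2 ratio of 0.49 (interval -0.11 to 1.17), within counting error.

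Egfr in cholangiocyte-like cells was 174 CPM in WT against 285 CPM in N-LKO, with a log2 ratio of 0.70 (interval 0.28 to 1.16), and the free RNA expected there was 59.6 and 130.1 CPM. Btc was 6.45 CPM in WT from 2 UMIs and 29.0 CPM in N-LKO from 26 UMIs, with a log2 ratio of 1.88 (interval 0.17 to 5.29). Errfi1 was 955 and 757 CPM, with a log2 ratio of -0.34 (interval -0.53 to -0.13), and Erbb2 rested on 2 and 10 UMIs. Of the 9 members measured in this class, 1 was past 2-fold higher (Btc) and 1 past 2-fold lower (Egf, on 2 UMIs in each library), against 12.7% and 12.4% of 12385 genes.

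Outside hepatocytes and bile duct cells Egfr was higher in N-LKO in most groups. Over the 14 groups with at least 50 cells in each library (11 classes and 3 mixed clusters), Egfr was higher beyond counting error in 12 and lower in 0. In endothelial-like cells, which line the sinusoids, it was 94.8 CPM (225 UMIs in WT) and 511 CPM (1788 UMIs in N-LKO), with a log2 ratio of 2.43 (interval 2.23 to 2.64). In T-like cells it was 78.3 and 336 CPM, with a log2 ratio of 2.10 (interval 1.83 to 2.39). In macrophage-like cells it was 52.2 and 150 CPM, with a log2 ratio of 1.51 (interval 1.29 to 1.75). The free RNA expected in these 3 classes, from barcodes under 500 UMIs, was 66.1, 67.3 and 53.3 CPM of Egfr in WT and 142, 142 and 115 CPM in N-LKO.

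Transcripts of the unnamed cluster moved with Egfr across these classes. In endothelial-like cells its 10 leading genes summed to 461 CPM in WT against 2043 CPM in N-LKO, to 379 and 1431 CPM in T-like cells, and to 357 and 602 CPM in macrophage-like cells. The 10 hepatocyte markers went the other way, from 15967 to 10954 CPM in endothelial-like cells, from 16138 to 10701 CPM in T-like cells and from 12710 to 8290 CPM in macrophage-like cells, none of the 10 being at 0. The part of such transcripts in the Egfr difference was not tested. With a mitochondrial limit of 10% the endothelial-like log2 ratio of Egfr was 0.07, on 419 WT and 57 N-LKO cells, and with no limit it was 1.30.

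Some ligands also stood higher in N-LKO in these classes, most of them on few WT UMIs, while Hbegf was lower in macrophage-like cells. In endothelial-like cells Btc was 0.843 CPM from 2 WT UMIs and 7.44 CPM from 26 N-LKO UMIs, with a log2 ratio of 2.85 (interval 1.14 to 6.26), above that of Egfr. Tgfa was 18.1 and 40.3 CPM, with a log2 ratio of 1.14 (interval 0.65 to 1.68), and Errfi1 was 436 and 598 CPM, with a log2 ratio of 0.45 (interval 0.35 to 0.56). Of 8 members measured there, 3 were past 2-fold higher and 0 lower, against 12.4% and 7.53% of 11535 genes. In T-like cells Tgfa rested on 4 UMIs in WT (2.59 CPM) and 58 UMIs in N-LKO (19.9 CPM). There 4 of 6 members were past 2-fold higher (Egfr, Erbb3, Tgfa and Hbegf) and 0 lower, against 11.7% and 8.19% of 11610 genes. Of these, Hbegf rested on 6 WT UMIs at a log2 ratio of 1.17 (interval -0.05 to 2.82), within counting error. Erbb3 rested on 14 WT UMIs, with expected free RNA at 81.4% of its level in WT and 52.1% in N-LKO. The T cell markers of this class summed to 1534 CPM in WT but 819 CPM in N-LKO, while macrophage markers were 647 and 1635 CPM and Kupffer cell markers 1135 and 1878 CPM, and their part in these ratios was not tested. In macrophage-like cells Hbegf, a ligand these cells are known to make, was 24.2 CPM in WT against 16.6 CPM in N-LKO, with a log2 ratio of -0.55 (interval -0.94 to -0.13). Btc there was 0.865 CPM from 3 UMIs in WT and 6.19 CPM from 51 UMIs in N-LKO, and Errfi1 was 312 and 226 CPM, with a log2 ratio of -0.47 (interval -0.58 to -0.36). Of 7 members measured in macrophage-like cells 3 were past 2-fold higher and 0 lower, against 4.01% and 6.02% of 10901 genes. The free RNA expected was 189% of the Btc level in WT endothelial-like cells and 47.1% in N-LKO. It was 149% and 45.8% for Btc in macrophage-like cells, and 122% and 84.3% for Tgfa there. For Tgfa it was 138% and 45.2% in T-like cells but 19.3% and 22.3% in endothelial-like cells. Apart from Tgfa in endothelial-like cells, these WT levels of Btc and Tgfa lay below the free RNA expected, and its part in the ratios was not tested.

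The order of the classes differed between members. Egfr in WT was highest in hepatocyte-like cells at 488 CPM. Erythroid-like cells at 298 CPM (interval 187 to 451, 51 cells) and cholangiocyte-like cells at 174 CPM (interval 131 to 227) followed, and their intervals overlapped. The WT erythroid-like cells had an estimated free RNA share of 79.1%, with 104 CPM of Egfr expected from it. Hepatocyte markers summed there to 25508 CPM, and the part of such RNA in this order was not tested. In N-LKO the unnamed cluster stood first at 1632 CPM, and endothelial-like cells at 511 CPM (interval 488 to 536) and hepatocyte-like cells at 496 CPM (interval 475 to 516) did not differ beyond their intervals. Errfi1 was highest in hepatocyte-like cells in WT and in the unnamed cluster in N-LKO. Erbb2 reached at most 6.45 CPM in WT against 11.2 CPM in N-LKO, both in cholangiocyte-like cells. Areg had 6 UMIs over the 14 groups in WT and 70 in N-LKO, 21 of these in macrophage-like cells.

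The genes whose log2(CPM + 1) followed each member most closely were found over the 30 pairs of group and library with at least 50 cells. The pairs of 1 library share its depth and its free RNA, so the correlations are descriptions. Egfr was followed by Prr16 (r = 0.95), Fggy (r = 0.93) and Gfra1 (r = 0.92), and Errfi1 by Pter (r = 0.93), Prox1 (r = 0.92) and Hnf4a (r = 0.91). Prox1 and Hnf4a encode transcription factors of hepatocytes. Erbb4 was followed by Sorbs2os (r = 0.94), Wwc1 (r = 0.93) and Sorbs2 (r = 0.91), and Tgfa by 4930402H24Rik (r = 0.93), Nbeal1 (r = 0.92) and Mrtfb (r = 0.91). Erbb3 was followed less closely by Gpld1 and Pex11a (r = 0.82 and 0.81), Hbegf by Enc1 and Anxa5 (r = 0.81 each) and Btc by Plin4, Map3k13 and Tacc2 (r = 0.84 each). Egf passed the level of 20 CPM only on 2 UMIs in WT erythroid-like cells and 3 UMIs in an N-LKO cluster led by Igfbp5, and its closest genes were Ninl, Ube4b and Zfp763 (r = 0.75, 0.71 and 0.70).

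**Figure D5:**
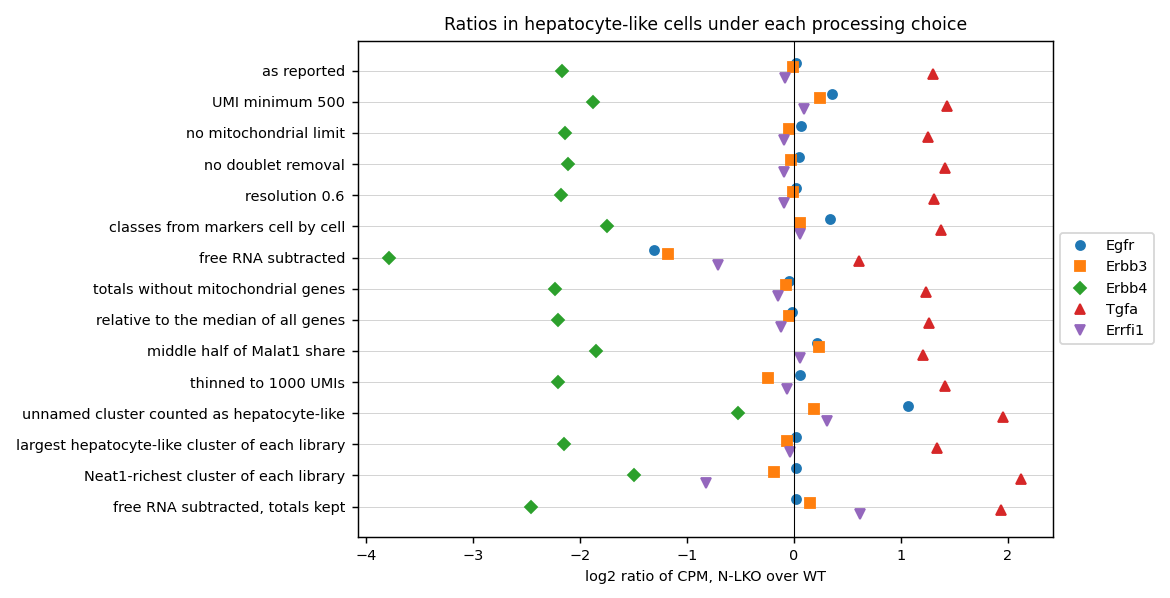
Log2 ratio of CPM, N-LKO over WT, in hepatocyte-like cells for Egfr, Erbb3, Erbb4, Tgfa and Errfi1 as reported and under each other processing choice. Erbb4 lay below 0 in every row, from -3.78 to -0.52, and Tgfa above 0 in every row, while Egfr ranged from -1.31 to 1.07.

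Erbb4 was below its WT level in hepatocyte-like cells under each of the processing choices that gave a value, and Tgfa above it, as the plot of ratios by processing choice shows. The ratio of Egfr spanned -1.31 to 1.07.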

How the data were processed

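Both libraries were 10x Genomics 3′ v3 droplet libraries. The authors deposited raw UMI counts per gene and barcode, written by Cell Ranger 7.1.0 per the file headers. The submitters' processing notes name build mm9, Cell Ranger and Seurat, and no cell annotation was used here, so cell names were rebuilt and may differ from the study's. The matrices held 100171 WT and 90147 N-LKO barcodes with 85522287 and 87575064 UMIs, of which 2499 barcode sequences occurred in both.

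Barcodes with at least 1000 UMIs, 400 genes and at most 30% mitochondrial UMIs were kept, and 1723 WT and 2364 N-LKO barcodes with a Scrublet score of 0.25 or more were removed as doublets (scanpy 1.11.5). Both libraries were clustered together (2000 variable genes, 30 principal components, Leiden resolution 0.3) into 23 clusters. A cluster was named where its mean marker score was at least 0.2 and 3 markers reached 2 times the median cluster, and was called mixed where an unrelated list with 3 raised markers scored over 0.6 of the first; these naming limits were set after the data were seen. UMIs were summed by class and library. Log2 ratios carry a prior of 0.5 UMIs and exact conditional binomial intervals, and need 10 UMIs in all. PCR copies are collapsed by UMIs, and all intervals cover counting error only. Free RNA was taken from barcodes under 500 UMIs, scaled by the median level of markers of other types.

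Named were the 10 members in every class with 50 cells per library, up to 5 higher and 5 lower pathway genes past 2-fold whose interval leaves out 1, the 3 genes most correlated with each member, and Nus1. For Erbb3 and Hbegf, 1 of the 3 correlated genes each is not reported here. The members and lists were chosen with earlier results of these data known. Gene positions were GENCODE M21, matched for 32235 of 32285 IDs, and 8 of 10 members had a RefSeq promoter. The ratio and its interval were tested on simulated data. Other cell filters, class rules, scalings, free-RNA subtraction, thinning, expression minimums and fold thresholds were tried, and 4 more alternatives (3 on clusters, 1 on the total after free-RNA subtraction) were added after the data were seen.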

Additional observations from a re-analysis of the deposited data

Results flagged for a closer look

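Barcodes under 1000 UMIs entered no comparison of cell classes above, where those under 500 UMIs served for the free RNA. In them 7 members stood higher in N-LKO than in WT beyond counting error, as did 49.8% of all 10589 genes. Egfr was 283 CPM in N-LKO and 133 CPM in WT, Tgfa 19.8 and 7.61 CPM, Erbb3 20.8 and 15.1 CPM, and Btc 7.28 and 3.08 CPM. Hbegf was 4.97 and 2.51 CPM, Areg 1.40 and 0.372 CPM, and Egf 1.14 and 0.546 CPM. Errfi1 (420 against 620 CPM in WT) and Erbb4 (64.7 against 75.2 CPM) were lower in N-LKO, as were 39.3% of all genes. These barcodes hold free RNA and damaged cells, and their part in the class levels was not tested.

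In addition, 3 members had ratios in opposite directions in different classes, each beyond counting error, and the difference between classes was not tested. The log2 ratio of Erbb4 was -2.17 in hepatocyte-like and -0.93 in cholangiocyte-like cells but 0.54 in T-like and 0.79 in endothelial-like cells. It was also -0.96 (interval -1.63 to -0.19) in neutrophil-like and 1.26 (interval 0.10 to 2.89) in plasmacytoid-like cells. In T-like cells the free RNA expected was 37.2 of 46.6 CPM of Erbb4 in WT and 28.0 of 68.0 CPM in N-LKO. That of Hbegf was 1.11 in hepatocyte-like and -0.55 in macrophage-like cells. That of Errfi1 was -0.082 in hepatocyte-like, -0.34 in cholangiocyte-like and -0.47 in macrophage-like cells but 0.45 in endothelial-like cells.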

How the results depend on the processing

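No paired analysis was possible because each genotype has 1 library. In hepatocyte-like cells the log2 ratio of Egfr (0.02) was 0.36 with a minimum of 500 UMIs, 0.34 with classes called cell by cell, 0.22 in the central range of the Malat1 share, -1.31 with free RNA subtracted and 1.07 with the unnamed cluster. That of Erbb3 (-0.01) was 0.25, 0.23 and -1.18 with 500 UMIs, the central range of Malat1 and free RNA subtracted. That of Errfi1 (-0.082) turned to 0.093, 0.055, 0.056 and 0.31 with 500 UMIs, cell by cell, the central range of Malat1 and the unnamed cluster, and was -0.71 with free RNA subtracted and CPM taken over the remaining UMIs but 0.62 over the totals before subtraction, -0.15 without mitochondrial genes in the totals, -0.036 between the largest clusters and -0.82 between the Neat1-richest clusters. The count of pathway genes past 2-fold higher (6) was 14 of 53 with the unnamed cluster, where 21.9% of all genes were, 26 with free RNA subtracted over the totals before subtraction, where 56.9% of all genes were, 11 between the Neat1-richest clusters and 10 at 1.5-fold. The count past 2-fold lower (0) was 15 with free RNA subtracted over the remaining UMIs, where 27.4% of all genes were, 1 over the totals before subtraction, 5 between the Neat1-richest clusters, 4 at 1.5-fold and 1 with no minimum beyond 3 UMIs. The share of cells with an Egfr UMI (34.4% in each library) was 48.3% in WT and 54.7% in N-LKO without thinning, and 62.5% and 58.3% at 2000 UMIs. In other classes, Errfi1 turned to 0.079 in cholangiocyte-like cells cell by cell, to -0.50 in endothelial-like cells with no mitochondrial limit, and to 0.072 without doublet removal and 0.018 with free RNA subtracted in macrophage-like cells. Erbb3 in endothelial-like cells turned to -0.71 with a mitochondrial limit of 10% and to -0.0010 with none, and Erbb4 there to -0.10 with none. The total used after subtraction moves every gene alike; the cause of the other moves was not tested. The limit of 10% left too few hepatocyte-like N-LKO cells for a value. Levels under about 5 CPM rest on few UMIs, and tumor, genotype and library cannot be told apart.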
